A study of Acacia koa with 4 samples.

Results

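Cytochromes P450 are haem enzymes that insert 1 atom of molecular oxygen into small molecules, and plants carry them in large families. Most sit on the endoplasmic reticulum and receive their electrons from NADPH through a partner flavoprotein, the cytochrome P450 reductase. They act in the synthesis of sterols, hormones, wall phenolics, cutin and defence compounds, and in the oxidation of foreign chemicals. The transcripts described here come from young plants of koa (Acacia koa), a tree legume native to the Hawaiian islands. They were taken by the text of their descriptions, under a rule set with earlier results of these data known. A transcript was taken when the description of its similar protein named a cytochrome P450 or a CYP family. It was left out when that description named abscisic acid, cinnamate, a flavonoid, an isoflavonoid, kaurene, ferulate, coumaroyl, gibberellin or allene oxide. This gave 134 of the 4000 transcripts on the array, and the exclusion terms removed 1 P450 transcript, an allene oxide enzyme (A151923). Of the 134, 128 were described as P450 enzymes and 6 as P450 reductases.

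Both groups were pools of koa seedlings. Stressed seedlings had their stems bent by hand towards each cardinal direction without a wound, and unstressed seedlings were not treated in this way. About 20 seedlings made up each pool, 2 pools stood for each group as biological replicates, and each pool was hybridised to an array of its own with Cy3 as the dye, so 4 arrays in all. No genotype, age or time between bending and freezing is given in the sources used here. Whole seedlings were ground, so a transcript found in fewer cells and one present at a lower level per cell cannot be told apart. The labelled tissue was set against the only 2 transcripts found by the search terms for photosynthesis. The chlorophyll-binding protein A61 read 61888.0 and 63136.6 in unstressed and 61683.8 and 63242.7 in stressed pools, and the photosystem protein A73 lay between 29095.9 and 30571.6 on the 4 arrays. Both thus gave bright signals on every array.

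Levels are given as linear RMA intensities, and differences are stressed minus unstressed on the log2 scale. An intensity depends on a transcript's own probes, so intensities of different transcripts are not set against each other as amounts of RNA. The 134 transcripts spanned intensities from 75.3 to 25699.4. Dim signals were common among them, with 53 of 134 (39.6%) in the dimmest 25% of the array. A family name was given for 31 transcripts, over 21 families. A further 96 P450 transcripts had no family in their description and 1 was described as a fatty acid enzyme.

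None of the 134 transcripts differed between stressed and unstressed pools after adjustment (limma, Benjamini-Hochberg over all 4000 transcripts, threshold 0.05). Over the whole array 0.95% of transcripts were called. The smallest adjusted p among the 134 was 0.379. At an unadjusted p under 0.05, 3 were higher and 4 lower in stressed pools. These are 2.24% and 2.99% of the 134, against 3.82% and 1.68% of all transcripts. That count of 7 changed in the fits that left out 1 array, most of all without unstressed replicate 2. The counts there were not set against the whole array. No transcript of the 134 was called in any of those fits. The P450 and reductase transcripts had a median log2 difference of −0.08, against −0.04 over all transcripts, and 89 of the 134 differences were negative (66.4%, against 60.8% of all transcripts). That median was 0.03 without unstressed replicate 1 and −0.13 without unstressed replicate 2. Groups did not overlap for 13 transcripts with both stressed values above both unstressed ones (9.70%, against 12.0% of all transcripts). For 26 transcripts both stressed values lay below (19.4%, against 19.5%). The shares of non-overlapping transcripts were thus close to those of the array. For 120 of the 134 (89.6%, against 92.1% of all transcripts) the unadjusted 95% interval of limma lay within a 2-fold change in either direction. A larger change of these 120 lies outside their intervals. The other 14 had wider or shifted intervals, and for them a 2-fold difference was not excluded by these 4 arrays.

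**Figure D1:**
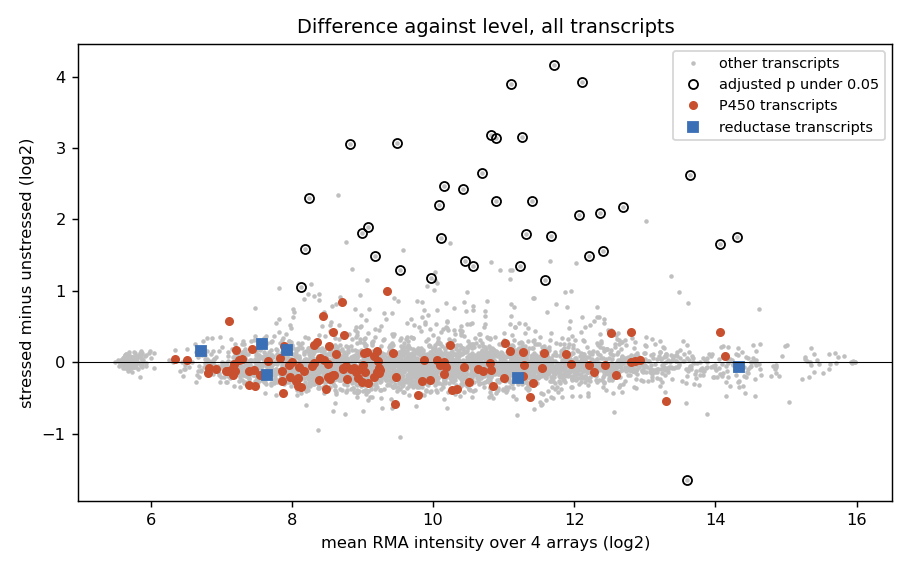
Stressed minus unstressed log2 difference against the mean log2 RMA intensity over 4 arrays, for all 4000 transcripts; grey points are other transcripts, orange points P450 transcripts, blue squares reductases, and open circles mark an adjusted p under 0.05. The orange and blue points lie between −0.58 and 1.00, and no open circle surrounds one of them.

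The largest positive difference was that of A42630, a P450 without a named family. It read 435.6 and 487.2 in unstressed pools, 1274.2 in stressed replicate 1 and 665.3 in stressed replicate 2. Both stressed values were above both unstressed ones, and the stressed pools differed 1.92-fold from each other. Its level was 2.00-fold higher in stressed pools (95% interval 1.12 to 3.57, limma adjusted p = 0.68). Without stressed replicate 1 its log2 difference was 0.53 instead of 1.00.

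A pair of CYP71D transcripts followed. The CYP71 family is the largest in many plants and oxidises terpenoids, phenolics and other defence compounds. A10609 and A31118 share the same similar protein, a soybean CYP71D, with A28776. Intensities of A10609 were 344.3 and 287.5 in unstressed pools and 790.0 and 400.8 in stressed replicates 1 and 2. Its level was 1.79-fold higher (0.97 to 3.30, limma adjusted p = 0.96). In A31118 the values were 281.4 and 275.1 against 612.5 and 309.9, a 1.57-fold higher level (0.86 to 2.84, limma adjusted p = 0.99). A28776 did not follow them, at 572.1 and 440.6 in unstressed and 514.0 and 405.5 in stressed pools, a log2 difference of −0.14 with overlapping groups.

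The dim P450 transcript A27727 had a similar course, at 114.5 and 112.8 in unstressed pools and at 232.9 and 122.6 in stressed replicates 1 and 2 (log2 difference 0.57, limma adjusted p = 0.99). In A42630, A10609, A31118 and A27727 stressed replicate 1 was at least 1.5 times each of the other 3 arrays, and these were the 4 such transcripts of the 134 (2.99%). The array as a whole held 23 of them (0.575%). Unstressed replicate 1 stood above the other arrays by this margin in 4 of the 134 as well (54 on the array), unstressed replicate 2 in 1 (20 on the array) and stressed replicate 2 in 1 (12 on the array). Without stressed replicate 1 the log2 differences of A10609, A31118 and A27727 were 0.35, 0.16 and 0.11. Most of their difference therefore came from 1 of the pools of bent seedlings. A high stressed replicate 1 was also seen outside the 134, in A53995 and A66450, described as flavonoid 3'-hydroxylases, P450 enzymes that place a hydroxyl group on flavonoid rings. A53995 read 272.5 and 326.6 in unstressed pools and 790.4 and 397.8 in stressed replicates 1 and 2. These transcripts were singled out for this pattern after their values were seen.

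The positive differences of A1233, A15362 and A24436 were smaller and more even between the stressed pools. A11053, with a log2 difference of 0.40, was not even. It read 5602.3 and 4676.0 in unstressed and 5383.0 and 8511.3 in stressed pools, with overlapping groups. A1233 read 5797.1 and 6560.4 in unstressed and 8877.1 and 7714.8 in stressed pools, 1.34-fold higher (1.04 to 1.73, limma adjusted p = 0.72). A15362, which shares its similar protein with A1233, read 326.9 and 433.1 against 517.3 and 463.6, a log2 difference of 0.38. In both transcripts of this pair the stressed values lay above the unstressed ones. A24436 had a log2 difference of 0.43 that rested on a low unstressed replicate 1, with 256.2 there against 427.2, 443.2 and 446.2 on the other arrays. Without unstressed replicate 1 it was 0.06.

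**Figure D2:**
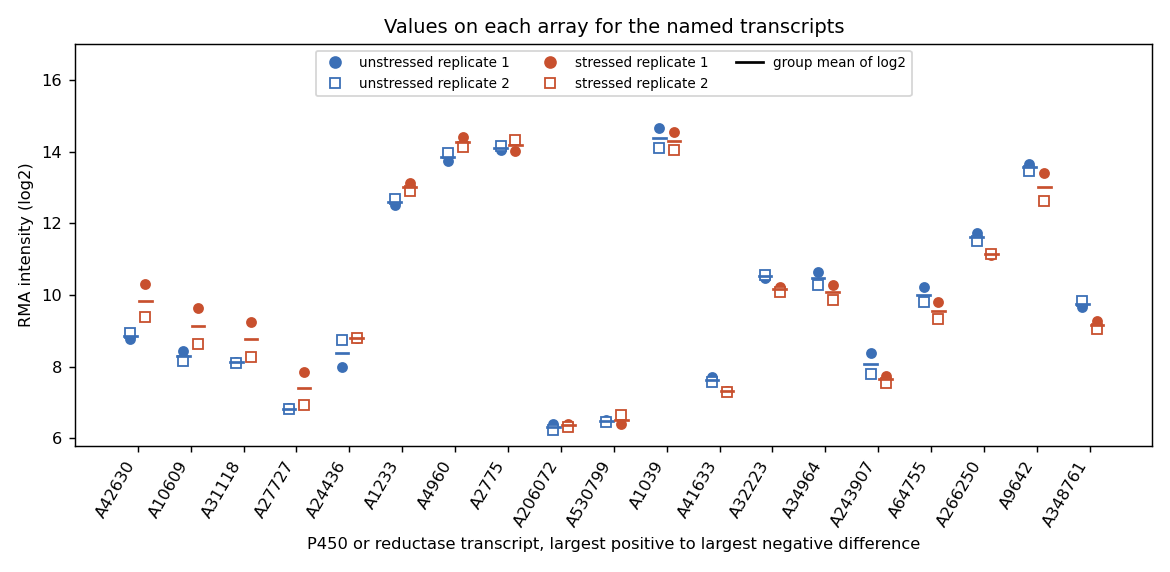
Log2 RMA intensity of the 19 named transcripts on each of the 4 arrays, ordered from the largest positive to the largest negative difference; blue marks are unstressed and orange marks stressed pools, filled circles replicate 1, open squares replicate 2, and short lines the group means (n = 2). In the 4 transcripts on the left, stressed replicate 1 stands above the other 3 arrays by at least 1.5-fold.

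The largest negative difference was that of A348761, a P450 without a named family. It read 818.1 and 904.2 in unstressed and 622.3 and 529.8 in stressed pools. The groups did not overlap, and its level was 1.5-fold lower (1.16 to 1.94, limma adjusted p = 0.38). A266250 was 1.40-fold lower (1.10 to 1.79, limma adjusted p = 0.50), with 3398.7 and 2901.8 against 2219.2 and 2269.7. In A32223 the values were 1435.4 and 1515.5 against 1201.4 and 1082.8 (log2 difference −0.37, limma adjusted p = 0.74). The stressed pools of these 3 transcripts lay within 1.17-fold of each other. A41633, a dim transcript of CYP83E8, read 208.9 and 190.7 against 161.0 and 156.9 (log2 difference −0.33, limma adjusted p = 0.86). A243907 read 336.4 and 220.7 against 215.8 and 188.4, where unstressed replicate 1 alone stood apart, and its log2 difference of −0.43 was −0.13 without that array.

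A pair of transcripts of CYP92A29, among the brightest of the 134, pointed in opposite directions. A4960 read 13768.7 and 15884.0 in unstressed and 21883.2 and 17901.4 in stressed pools, 1.34-fold higher (1.003 to 1.79, limma adjusted p = 0.89). A9642 read 12957.8 and 11330.8 in unstressed and 10908.2 and 6339.2 in stressed pools, 1.46-fold lower (0.88 to 2.41, limma adjusted p = 0.99). The 2 share 1 similar protein, and neither difference passed the threshold. In A9642 stressed replicate 2 was the low array, and without it the log2 difference was −0.15 instead of −0.54. The other 4 transcripts whose families are given without a role here were CYP89A28 (A438566, log2 difference 0.06), CYP89H3 (A34964, −0.39), CYP736B (A290151, −0.18) and CYP76E3 (A92666, −0.37). A34964 read 1595.7 and 1254.2 against 1246.4 and 934.9, so that its groups were separated by less than the gap within either of them.

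The electron donors were described next, since P450 enzymes depend on them. Of the 6 reductase transcripts 3 were positive and 3 negative, with log2 differences from −0.23 to 0.26. The brightest, A1039, read 25699.4 and 17444.4 in unstressed and 23765.5 and 17033.7 in stressed pools. Its groups overlapped, with a log2 difference of −0.07 (95% interval −0.75 to 0.60), whereas its unstressed pools differed 1.47-fold. A348666 read 2779.4 and 2349.2 against 2300.0 and 2077.4, and A231338, which shares its similar protein, 213.6 and 214.3 against 194.4 and 182.9. Both were lower without overlap, at −0.23 and −0.18. A175569, at 147.4 and 208.1 against 210.2 and 208.2, and A155558, at 106.4 and 93.1 against 106.7 and 116.4, were higher without overlap by 0.26 and 0.16. Their lower stressed values were only 1.0005 and 1.002 times the higher unstressed ones. Without unstressed replicate 1 the log2 difference of A175569 was 0.008. Over the whole array 12.0% of transcripts were higher and 19.5% lower without overlap. A77325, which shares its protein with A1039, was at 0.17 with overlapping groups. Of these 6, 4 lay in the dimmest 25% of the array.

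Enzymes of sterol synthesis, which supply the sterols of plant membranes, differed little between the groups. CYP51G1 (A4729), the demethylase of the sterol backbone, read 5991.7 and 8503.3 in unstressed and 6727.2 and 7643.6 in stressed pools. CYP710A15 (A38905), of the sterol desaturases that make stigmasterol, read 3397.8 and 4743.9 against 3642.5 and 4251.4. In each the stressed values lay between the unstressed ones, with log2 differences of 0.01 (95% interval −0.53 to 0.54) and −0.03 (−0.56 to 0.50).

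Brassinosteroids are growth hormones made from such sterols by further P450 enzymes. CYP90A15 (A64755), of the family that acts early in that synthesis, read 1188.0 and 898.4 in unstressed and 892.5 and 638.1 in stressed pools. The groups did not overlap by a small margin, and its log2 difference was −0.45 (95% interval −1.05 to 0.14, limma adjusted p = 0.99). Its value was −0.25 without unstressed replicate 1 and −0.21 without stressed replicate 2. CYP85A (A421919), of the oxidases that complete the hormone, read 533.1 and 430.4 against 437.5 and 377.1, a log2 difference of −0.24 with overlapping groups.

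Fatty acid hydroxylases, which supply the monomers of cutin and suberin, were represented by 5 transcripts, all with overlapping groups. CYP86A24 (A41717), of the family that oxidises the end of the fatty acid chain, read 1962.7 and 2838.2 against 2453.6 and 2763.8, a log2 difference of 0.14. CYP94A (A38354), of a further such family known from vetch, read 2664.1 and 3460.5 against 2294.5 and 2677.2, a difference of −0.29. CYP77A3 (A34054), CYP704G7 (A11280) and the transcript described as a P450-dependent fatty acid enzyme (A28744) were at −0.04, −0.11 and −0.14. None of the 5 intervals excluded 0.

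Single transcripts stood for the oxylipin, lignin and carotenoid branches. CYP84A16 (A2775), of the ferulate 5-hydroxylases that direct lignin towards syringyl units, had bright signals of 16742.8 and 18219.8 in unstressed and 16715.6 and 20533.0 in stressed pools. Its log2 difference was 0.09 (95% interval −0.31 to 0.48). CYP74A1 (A398762), of the allene oxide synthases of jasmonate synthesis, was dim, at 127.7 and 124.9 against 117.4 and 118.4, a log2 difference of −0.10. The brighter transcript that the exclusion terms removed, A151923, read 4212.0 and 4016.6 against 3976.2 and 3865.2 (log2 difference −0.07). CYP97B2 (A18754), of a family of carotenoid hydroxylases, was at −0.08.

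In legumes, CYP88D6 and members of CYP72A oxidise triterpenoids, the backbones of saponins such as glycyrrhizin in licorice. CYP88D6 (A189838) read 1069.0 and 2430.6 in unstressed and 1114.2 and 1575.6 in stressed pools. Replicate 2 was the higher of the pair in both groups, the groups overlapped, and the log2 difference between them was −0.28 (95% interval −1.38 to 0.82). The 3 transcripts of CYP72A59 (A2924, A24719 and A206072) had log2 differences of −0.19, −0.34 and 0.05 and overlapping groups. A206072 was the dimmest of the 134, at 75.3 to 85.4 on the 4 arrays, and A530799 the next, at 84.3 to 100.8 with a log2 difference of 0.04.

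Relatives of soybean P450s of the CYP71, CYP82 and CYP93 families made up 9 transcripts, with 3 positive and 6 negative differences. Besides the CYP71D transcripts given above, CYP82A (A9121) was the third positive one, at 237.7 and 358.7 against 297.8 and 401.6 (log2 difference 0.24). The other members of CYP71 were A19792 (CYP71D, −0.14) and A75271 (CYP71A, −0.20). The 3 CYP93A transcripts were A232470 at −0.05, A87348 at −0.05 and A53292 at −0.01. Within this set the spread of differences was thus set by A10609 and A31118, both with a high stressed replicate 1.

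**Figure D3:**
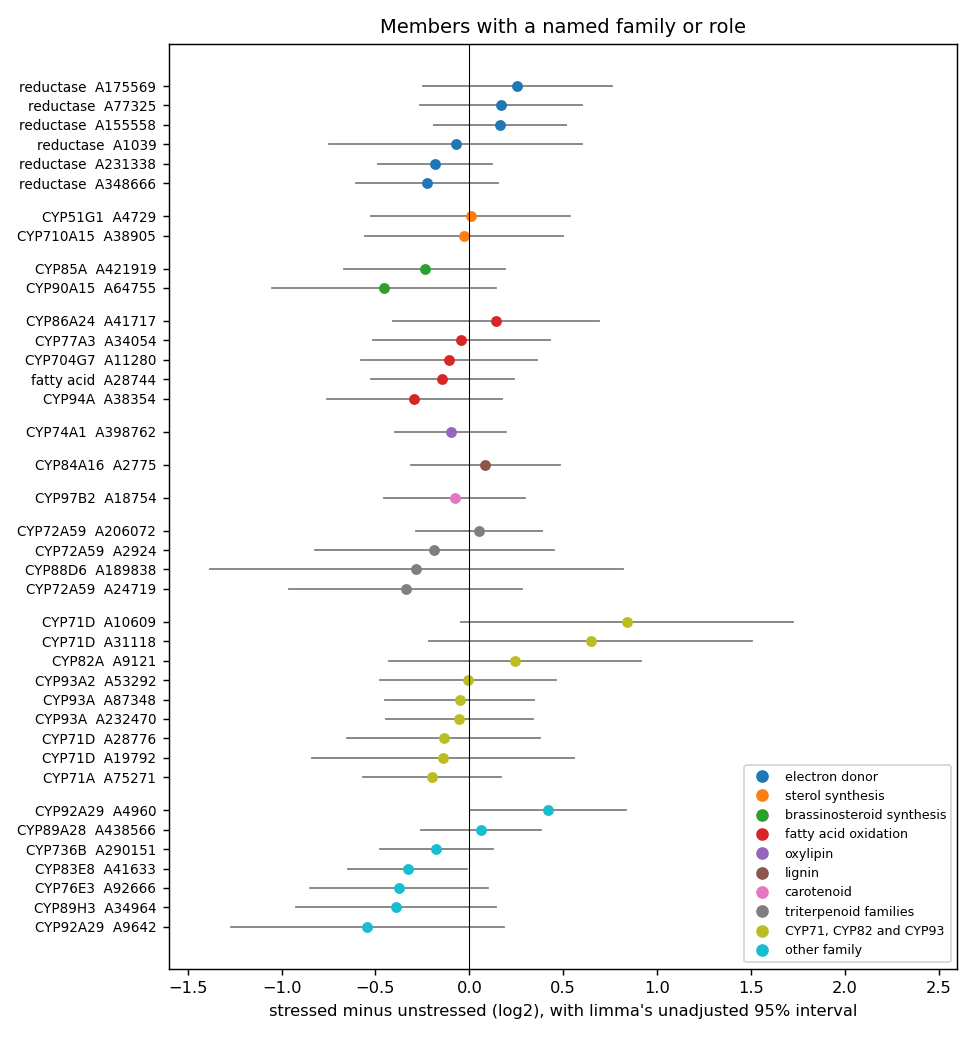
Stressed minus unstressed log2 difference of the 38 transcripts with a named family or role, as points with limma's unadjusted 95% intervals as lines, coloured by role. Only the intervals of A4960 and A41633 exclude 0, and each has 1 end close to 0.

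Beyond the 19 transcripts named by the rule, the other 115 had log2 differences from −0.37 to 0.40, with 35 positive and 80 negative. The rule had taken the largest differences out, so these ranges are a description of what remained. The 87 of them without a named family ranged from −0.35 to 0.40, with a median of −0.08.

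Related transcripts were compared next. A set of 22 similar proteins was each shared by at least 2 transcripts, 61 in all, and such relatives may bind each other's probes. All members were negative in 7 of these groups, all positive in 3 and of mixed sign in 12. A first group held 8 transcripts with differences from −0.18 (A126665) to 0.23 (A56521). In A56521 the values were 406.2 and 285.7 against 537.7 and 298.2, so replicate 1 was the higher pool in both groups. A second group of 8 ran from −0.14 (A39487) to 0.25 (A19601). In A19601 unstressed replicate 1, at 899.8, lay below the other 3 arrays at 1313.1 to 1377.6. The widest ranges were those of the CYP71D group, from −0.14 to 0.84, and of the CYP92A29 pair, from −0.54 to 0.42.

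**Figure D4:**
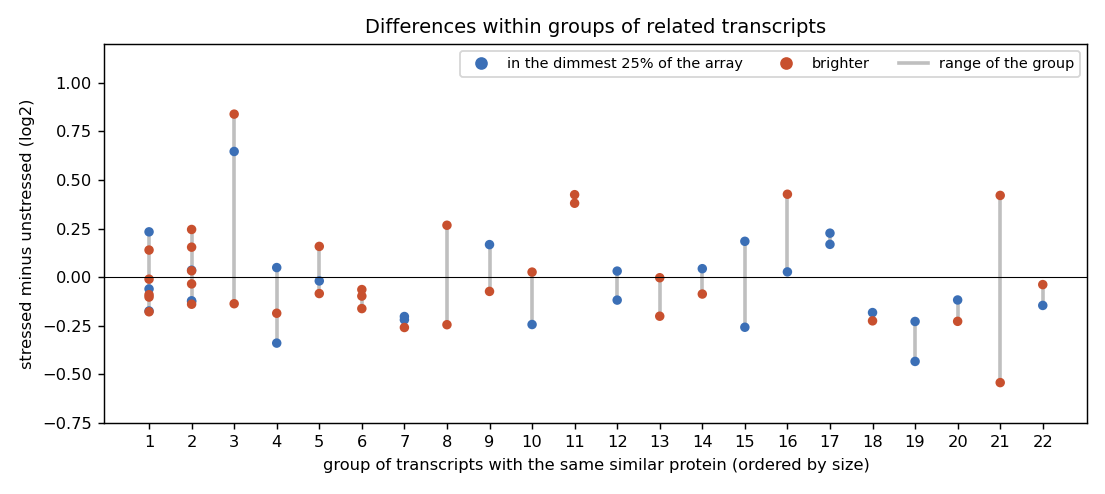
Stressed minus unstressed log2 difference of the 61 transcripts that share a similar protein with another, in 22 groups ordered by size; blue points lie in the dimmest 25% of the array, orange points are brighter, and grey bars span each group. Group 3 is the CYP71D group and group 21 the CYP92A29 pair, and 12 groups have members on both sides of 0.

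The pools of one treatment were then compared with each other. The median absolute log2 gap within the unstressed group was 0.30 for the 134 transcripts and 0.21 for all transcripts. Within the stressed group it was 0.20 and 0.14. A gap of at least 1.5-fold between the unstressed pools was found in 25 of the 134 (18.7%), against 9.30% of all transcripts, and between the stressed pools in 11 (8.21%, against 3.45%). Unstressed replicate 1 was above unstressed replicate 2 in 93 of the 134 (69.4%), and stressed replicate 1 above stressed replicate 2 in 91 (67.9%). On the whole array these shares were 49.3% and 46.6%. In the dimmest 25% of the array they were 60.5% and 49.0% of all transcripts, and 83.0% and 71.7% of those from the 134. The brighter ones of the 134 were at 60.5% and 65.4%. Replicate 1 was the higher pool in both groups for 77 transcripts (57.5%, against 30.7% of the array), and the lower one in both for 27 (20.1%, against 34.8%). No label says what same-numbered pools have in common, and these shares are descriptions without a test, as transcripts of a family are not independent.

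Wide gaps between pools were also found among transcripts without a family name. A30666 read 1499.1 and 773.7 in unstressed and 988.5 and 835.4 in stressed pools. A1901 read 1829.4 and 3485.8 against 1747.9 and 2744.9, and was, of the 134, the 1 transcript with a gap of at least 1.5-fold in both groups. Replicate 1 was thus high in A30666 and low in A1901, as it was in CYP88D6. A10304, which shares its similar protein with A30666, read 2446.2 and 1471.4 against 2022.1 and 2576.9, with opposite order in the groups. Its log2 difference was 0.27 with overlapping groups, against −0.25 in A30666. Whether organ composition, growth stage or handling differed between the pools was not tested.

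**Figure D5:**
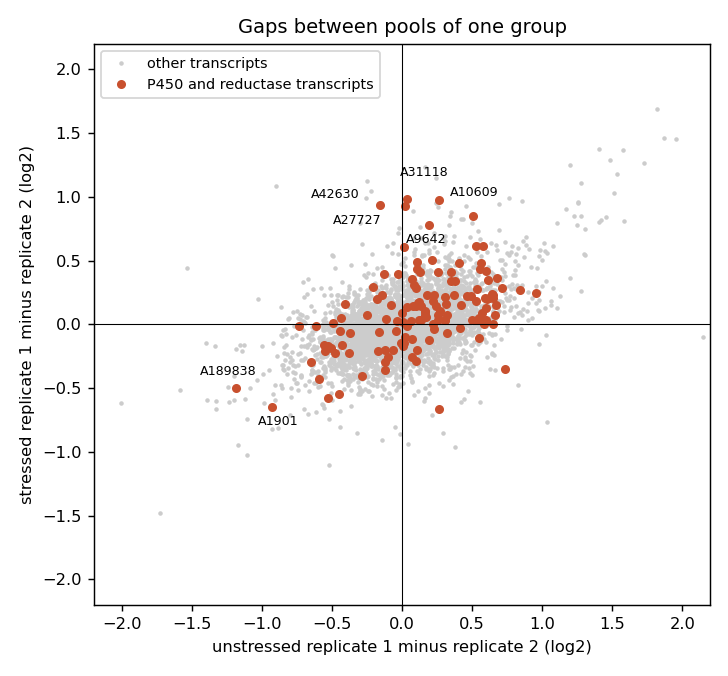
Log2 gap between the stressed pools (replicate 1 minus replicate 2) against the gap between the unstressed pools, for the 134 P450 and reductase transcripts (orange) and the other transcripts (grey); 3 transcripts, none of them orange, lie outside the axes. Of the orange points, 77 lie above 0 on both axes and 27 below 0 on both, and A42630, A10609, A31118 and A27727 stand apart upwards.

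Steps that precede or follow P450 oxidation were read from lists of search terms. A list of 18 transcripts for P450 enzymes of named hormone and phenolic pathways included 2 galactosyltransferases caught by the terms. Of the 18, 1 was called higher and none lower, against 0.95% of all transcripts called in either direction. It was abscisic acid 8'-hydroxylase (A48201), the P450 that begins the breakdown of this drought hormone. Its values were 486.6 and 524.4 in unstressed and 2206.1 and 2465.9 in stressed pools, 4.62-fold higher (3.66 to 5.83, limma adjusted p = 0.0059). The call was lost without stressed replicate 1 and without stressed replicate 2, fits that keep a single stressed array. Fewer transcripts were called over the whole array in these fits too. The flavonoid 3'-hydroxylase A66450 read 223.5 and 273.1 against 563.7 and 363.8, and the gibberellin enzyme ent-kaurene oxidase (A68695) 1507.9 and 1482.8 against 1234.0 and 1188.8. Cinnamate 4-hydroxylase (A1497), of the phenylpropanoid pathway, read 228.0 and 175.9 against 239.6 and 466.1. These 3 were at log2 differences of 0.87, −0.30 and 0.74 and did not pass the threshold. The list's median log2 difference was 0.15.

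Oxidised compounds are often joined to glutathione or sugars and then carried into the vacuole. No transcript was called among 16 glutathione S-transferases (median log2 difference 0.00), 103 glycosyltransferases (−0.02) or 39 ABC and MATE transporters (−0.02). With the unadjusted p of limma, 0, 2 and 0 of them lay under 0.05, the 2 being the glycosyltransferases A60967 and A19678. The 2 were 1.94% of that list, against 5.5% of all transcripts, and 0.95% of all transcripts were called. A60967 read 1941.1 and 2078.8 in unstressed and 3356.1 and 4149.3 in stressed pools (log2 difference 0.89, limma adjusted p = 0.15). In A19678 the values were 1994.6 and 2200.2 against 3049.0 and 3050.9 (0.54, limma adjusted p = 0.32). The glutathione S-transferases with the smallest p were A18684 at 0.35 and the omega-class A23820 at 0.90. In A23820 stressed replicate 1, at 1383.1, lay above the other 3 arrays at 372.4 to 696.5. Among the transporters A179868 was at −0.29 and A171260 at −0.22. Of 15 transcripts found by terms for roots and nodules, none was called, and 9 were positive and 6 negative. An unadjusted limma p under 0.05 was seen in 1 (6.67%, against 5.5% of all transcripts). It was the nodulin A268015, which read 1260.9 and 901.2 against 513.4 and 516.6 (limma adjusted p = 0.17). Their part in the P450 values was not tested.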

How the data were processed

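RNA of 4 pools of koa seedlings was measured on 1-colour NimbleGen arrays, with 2 unstressed and 2 stressed pools grouped by their titles. The authors deposited 1 RMA intensity for each transcript on each array, not log-transformed, per the submitters' processing notes and the file headers. RMA corrects background, aligns the arrays and summarises a transcript's probes, so a change common to most transcripts would be removed. Which version of RMA was run, and how, is not stated in those notes. Each of the 134 transcripts had 18 probes, and the deposited table of the series differed from the array files by at most 0. The number of arrays limits the precision.

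Intensities were taken to log2 here and compared with limma's lmFit and eBayes (version 3.58.1, under R 4.3.3), with group as the only term, 2 residual and 2.93 prior degrees of freedom, and Benjamini-Hochberg adjustment over all 4000 transcripts. All transcripts were kept, and log2 was taken without an offset. Folds are ratios of geometric means, with limma's unadjusted 95% intervals. Permuting the 4 arrays was not used, since its smallest two-sided p is 0.333. Alternatives left out each array, used the replicate number as a block, left out the dimmest 25% of transcripts, centred or quantile-normalized the arrays, added 64 before log2, or let the prior variance follow intensity. CYP families are those in the deposited descriptions, and roles of families come from general knowledge. Named transcripts were those at an unadjusted p under 0.05, the 6 largest differences in each direction, the 4 brightest and the 2 dimmest. Transcripts called, or else the 2 with the smallest p, were named from other lists. Members of named families and of shared-protein groups were also given. The members and lists were chosen with earlier results of these data known. No sequence was used here.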

Additional observations from a re-analysis of the deposited data

How the results depend on the processing

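No P450 or reductase transcript was called by limma in the main fit (7 at an unadjusted p under 0.05) or in the 9 alternatives without a replicate block. Leaving out 1 array gave 8 to 27 called transcripts on the whole array instead of 38, and 4 to 31 of the 134 at an unadjusted p under 0.05. The smallest adjusted p of the 134 in those fits was 0.19. With the replicate number as a block, 21 of the 134 had an unadjusted p under 0.05. The share of all transcripts at that limit in this fit is not given here. In the block fit 139 transcripts were called, 3 of them among the 134. The 3 were A42630 (adjusted p = 0.0059), A10609 (0.0060) and A348761 (0.036), at unchanged log2 differences of 1.00, 0.84 and −0.58. In the other lists the block added A53995 and A66450 to A48201 among the 18 transcripts listed for P450 enzymes of named pathways. Of 103 glycosyltransferases it called A60967 and A19678 (adjusted p = 0.00077 and 0.043 by limma). Of 15 transcripts found by terms for roots and nodules it called, lower, the nodulin A268015 (0.00033). It called none of the glutathione S-transferases and transporters. Same-numbered pools deviated together (correlation 0.51 over all transcripts, 0.44 over the 134), but no label ties the numbers to a shared batch, and that fit has 1 residual degree of freedom. Of 184 recomputed differences of 19 named transcripts, 7 changed sign, all in transcripts whose difference was near 0. They were A1039 without unstressed replicate 1 (0.21), without stressed replicate 2 (0.17) and after quantile normalization (0.0060), A206072 without unstressed replicate 2 (−0.032) and without stressed replicate 1 (−0.0029), and A2775 (−0.063) and A530799 (−0.093) without stressed replicate 2. Over the fits without 1 array the differences ran from −0.35 to 0.21 in A1039, −0.032 to 0.13 in A206072, −0.063 to 0.23 in A2775 and −0.093 to 0.16 in A530799. Most of the 19 were named for a large difference or a small p. Over all 134, the sign changed in 48 without unstressed replicate 1 and in 23 without unstressed replicate 2. It changed in 23 without stressed replicate 1 and in 26 without stressed replicate 2. Sign changes over all transcripts were not counted, so these are not read as particular to the 134. The cause of these changes was not tested. Signal over background was not measured here, and the dimmest 25% is a rank on the array.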
